A study of Mus musculus with 10 samples.

Results

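The F-box, cullin, TRIM and Kelch genes encode 4 large groups of proteins that attach ubiquitin to other proteins or hold those that do. Their members were taken by symbol as the protein-coding genes named Fbxl, Fbxo, Fbxw, Cul, Trim or Klhl with a number. The 11 ligases of these families that are usually named in muscle wasting or sarcomere upkeep (Fbxo32, Fbxo30, Fbxo31, Fbxo21, Fbxo40, Trim63, Trim54, Trim55, Trim32, Klhl40 and Klhl41) were left out. This gave 175 of the 39179 gene identifiers counted, namely 63 Trim, 34 Klhl, 31 Fbxo, 21 Fbxw, 18 Fbxl and 8 Cul genes.

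A cullin is the rod of a modular ubiquitin ligase. One end carries a RING protein that brings the ubiquitin-loaded enzyme, and the other end carries an adaptor that picks the substrate. On Cul1 the adaptor is an F-box protein held by Skp1, and on Cul3 it is a BTB protein such as a Kelch-like (Klhl) protein. Most TRIM proteins carry their own RING finger and need no cullin, and several TRIM proteins act in the response to interferon. In muscle these ligases are best known through atrogin-1 (Fbxo32) and MuRF1 (Trim63), both among the genes left out here.

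RNA was sequenced from the tibialis anterior, a shin muscle rich in fast-twitch fibers, in 4 Control and 6 LLC mice, to ask which transcripts differ as muscle wastes in cancer cachexia. LLC mice carried Lewis Lung Carcinoma, a mouse lung tumor line, injected under the skin of both flanks, and were studied on day 23 of tumor growth per the sample labels. Control mice received buffer alone and no tumor cells. Each library came from 1 mouse, and the sequenced LLC mice were among those that lived to the end of the experiment. The labels give C57BL/6J mice injected at 10 weeks of age, whereas the text of the series gives C57BL/10 males of 8 weeks studied on day 22, and which is right could not be settled. The labels name no transgene or deletion in either group.

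The libraries held 16693209 to 21303084 counts each, so that 3 counts equal 0.148 to 0.174 CPM (counts scaled to a common library total with TMM factors). Markers of fast fibers made up 142923 to 151880 CPM in Control and 102333 to 158406 CPM in LLC, with the lowest sum in LLC 1. The 8 of 10 neutrophil markers that were tested were all higher in LLC, their list going from 1.43-2.91 CPM in Control to 34.8-76.5 CPM. All 7 fibroblast markers were lower, from 302-387 CPM to 55.9-99.1 CPM. None of the markers was at 0 in every library. T and B cell markers were too low to test, at 0.642-0.767 CPM in Control and 0.335-0.756 CPM in LLC. In bulk muscle, fewer cells of a type and less RNA per cell cannot be told apart. The part of these cell types in the results on the ligases was not tested. LLC 1 stood apart from the other LLC libraries in many genes. For several genes, though not for all that it may affect, the result without it is also given.

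Of the 175 members, 115 had enough counts to be tested among 12690 genes in all. The 60 others were at or near background, 24 of them with 0 counts in all 10 libraries, including 12 Fbxw genes. The other 36 reached at most 0.48 CPM as a group mean, in Fbxl2. A gene was called if its change was at least 1.5-fold with a Benjamini-Hochberg adjusted p of at most 0.05 in edgeR's quasi-likelihood test. By this rule 5 of the 115 tested members were called, 4.35%, beside 5.63% of all genes tested. In LLC muscle Klhl38 rose, and Klhl34, Klhl13, Klhl23 and Fbxl16 fell. The share of all genes called was 1.65% for higher and 3.99% for lower genes. The families were therefore called about as often as genes at large.

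Most members moved little. The median log2 fold change (LLC against Control) was 0.04 over the members and 0.00 over all genes, and the median size of the change regardless of sign was 0.19 and 0.22 on the log2 scale. Changes under 1.5-fold made up 106 of the 115 members, 92.2%, beside 85.3% of all genes. Upper-quartile scaling moved the median of the members to 0.00 and that of all genes to -0.03. By sign, 64 members were higher and 51 lower in LLC. DESeq2 called 7 members, with 8.29% of all genes, and added Fbxl22 and Klhl29. At an unadjusted p the count was 9, with 12.4% of all genes, adding Klhl6 and Trim2.

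**Figure D1:**
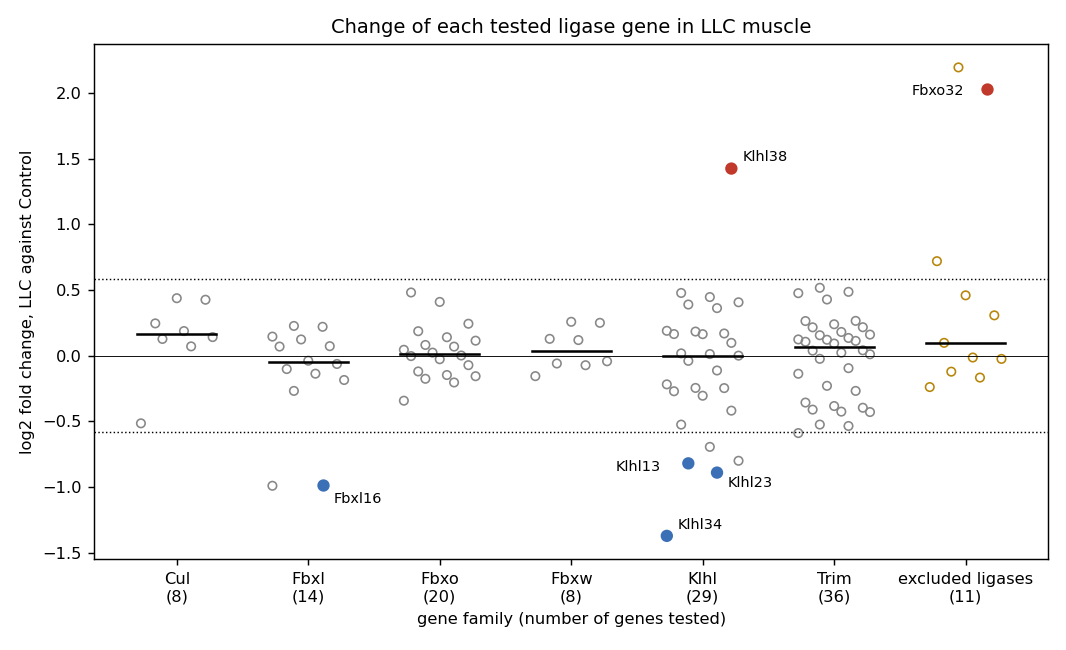
Log2 fold change (LLC against Control, y axis) of each tested gene by family (x axis, with the number of genes tested), beside the 11 excluded ligases in gold. Filled points are genes called by edgeR (red higher, blue lower), bars are medians and dotted lines mark 1.5-fold. The 5 called members are 4 Klhl genes and Fbxl16, and no Cul, Fbxo, Fbxw or Trim gene is filled.

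The calls lay mostly in the Kelch family. There 4 of 29 tested genes were called, 13.8%, while only Fbxl16 was called among the 86 tested members of the other families. None of the 8 cullins, 20 Fbxo, 8 Fbxw or 36 Trim genes tested was called by edgeR or by DESeq2, although Trim2 passed an unadjusted p. The median log2 fold change was 0.16 for Cul, 0.07 for Trim, 0.04 for Fbxw, 0.01 for Fbxo, 0.00 for Klhl and -0.05 for Fbxl. Klhl changes also ran widest, from -1.37 to 1.42, against -0.59 to 0.52 for Trim and -0.34 to 0.48 for Fbxo. The difference between families was not tested.

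Before the values, promoter sequences are given for members that the results turn on, since a reader may wish to compare genes that moved the same way. They are the 250 bases before a transcript start in RefSeq (GRCm38.p6), where 137 of the 175 members were found. Klhl34 and Fbxl16 fell, and Klhl23 fell and has 3 listed starts of which the first is shown. Trim30a, an interferon-linked gene, has 2 listed starts, of which only the 1 shown holds the interferon response motif. Capitals mark E-boxes (CANNTG) and, in Trim30a, also the interferon response motif on the reverse strand. The windows are chrX:157818185-157818434 (plus strand) for Klhl34, chr17:25808211-25808460 (plus) for Fbxl16, chr2:69821691-69821940 (plus) for Klhl23 and chr7:104465194-104465443 (minus) for Trim30a.
Klhl34: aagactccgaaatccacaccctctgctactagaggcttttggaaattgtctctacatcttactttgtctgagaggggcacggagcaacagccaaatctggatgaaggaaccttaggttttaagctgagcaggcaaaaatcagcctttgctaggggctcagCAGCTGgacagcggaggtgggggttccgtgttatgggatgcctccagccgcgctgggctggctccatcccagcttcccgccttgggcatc
Fbxl16: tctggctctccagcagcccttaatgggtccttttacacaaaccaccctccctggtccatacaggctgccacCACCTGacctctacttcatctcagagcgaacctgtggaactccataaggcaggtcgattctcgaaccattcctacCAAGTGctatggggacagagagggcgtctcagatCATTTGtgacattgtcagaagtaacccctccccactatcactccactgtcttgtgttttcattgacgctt
Klhl23: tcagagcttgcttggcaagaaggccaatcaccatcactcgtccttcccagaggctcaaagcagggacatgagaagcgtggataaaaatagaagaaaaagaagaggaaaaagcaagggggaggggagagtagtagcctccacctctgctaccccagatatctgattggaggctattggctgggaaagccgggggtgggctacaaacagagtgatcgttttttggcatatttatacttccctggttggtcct
Trim30a: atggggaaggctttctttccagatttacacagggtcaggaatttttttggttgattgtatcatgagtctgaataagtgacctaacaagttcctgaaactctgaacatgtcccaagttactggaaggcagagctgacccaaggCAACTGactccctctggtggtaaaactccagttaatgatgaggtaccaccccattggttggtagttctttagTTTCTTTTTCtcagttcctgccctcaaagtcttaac
Both strands were searched for FoxO (GTAAACA), STAT (TTCNNNGAA), AP-1 (TGANTCA), NF-kB, interferon response and E-box letters. The first 5 of these motifs had no match in the windows of Klhl34, Fbxl16 and Klhl23, which says only that the letters are not in them. Klhl13, which also fell, has 5 listed starts, of which 1 holds the AP-1 and 1 the STAT letters. E-boxes matched in 66.2% of all 32851 promoters of this length and in 60.6% of the 127 promoters of tested members, some of which have several. The interferon motif matched in 2.98% of all promoters and in 9.45% of those of tested members. These were 12 promoters of 10 genes, namely Trim5, Trim12c, Trim26, Trim30a, Trim30d, Cul1, Fbxl15, Fbxo36, Fbxo7 and Klhl22. Fbxl15 and Klhl22 count with 2 starts each, and Trim5, Trim12c, Trim30a and Trim30d lie in a single cluster on chromosome 7. The promoters are thus not independent, and the difference in share was not tested. FoxO letters were in 3.17% of all and 1.57% of member promoters, STAT in 7.02% and 4.72%, AP-1 in 6.75% and 5.51%, and NF-kB in 17.6% and 18.1%. No promoter of Klhl38 was found in the table used.

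Klhl34 (ENSMUSG00000047485, chromosome X:157818435-157820369, plus strand, GRCm38) is a Kelch-like gene of striated muscle made of a single exon. Its levels were 14.4, 12.3, 11.4 and 17.04 CPM in the 4 Control libraries and ran from 3.07 to 6.95 CPM in LLC, with a median of 5.66. Every LLC library lay below every Control library, by a wide margin. The Control mean was 13.8 ± 2.51 CPM (SD, n = 4) and the LLC mean 5.33 ± 1.34 CPM (SD, n = 6). This was a log2 fold change of -1.37 ± 0.19 (SE; edgeR quasi-likelihood test, adjusted p = 0.00156). It was the member of lowest p, and it stayed called under all 21 alternative settings. Among these, no minimum fold and an unadjusted p could not end a call. Without LLC 1 the log2 fold change was -1.33.

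Klhl13 (ENSMUSG00000036782, chromosome X:23219271-23365082, minus strand) encodes a Cul3 adaptor known to act with Klhl9 on Aurora B kinase in cell division. Control libraries held 3.23, 2.67, 2.76 and 2.74 CPM, and LLC libraries 1.27 to 1.93 CPM with a median of 1.66. The groups were apart, and Control 1 sat above the 3 other Control libraries. This gave a log2 fold change of -0.82 ± 0.16 (SE; edgeR adjusted p = 0.00894). Its exons overlap those of Gm14523 on the same strand, so its count depends on how reads were assigned there. Klhl9, its partner, had 38.1 CPM in Control and 42.8 in LLC and was not called.

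Klhl38 (ENSMUSG00000022357, chromosome 15:58314573-58324169, minus strand) is a muscle Kelch gene and was the only member called higher in LLC. Control libraries held 14.7, 13.3, 15.7 and 12.1 CPM, and LLC libraries ran from 20.4 to 62.4 CPM with a median of 28.8. All LLC libraries were above Control, and 2 of them, LLC 1 at 59.0 and LLC 5 at 62.4 CPM, were far above the other 4. The SD was 49.0% of the mean in LLC and 11.5% in Control. In edgeR the log2 fold change was 1.42 ± 0.32 (SE; edgeR adjusted p = 0.0221), and 1.26 without LLC 1 (adjusted p = 0.0131). The call was lost without any 1 of the Control libraries, with adjusted p up to 0.0779 at log2 fold changes of 1.36 to 1.49. Its exons overlap the antisense gene Gm15943.

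Klhl38 lies 99640 bases from the end of the excluded gene Fbxo32 (chromosome 15:58175879-58214932), on the same strand. No gene of the annotation lies wholly between them, but the antisense gene Gm15943 spans the gap and overlaps exons of both. Fbxo32, the atrogin-1 gene, held 376, 269, 367 and 385 CPM in Control and 517 to 3630 CPM in LLC with a median of 933. Its log2 fold change was 2.03 ± 0.49 (SE; edgeR adjusted p = 0.0307), and LLC 1 and LLC 5 were again the highest libraries. They were also highest for Trim63, on chromosome 4, at 2529 and 1197 CPM. Over all 12690 tested genes, LLC 1 was furthest in the direction of the change in 6705 and LLC 5 in 2732. Any tie between Klhl38 and Fbxo32 was not tested. Fbxo32 was the only excluded ligase called by edgeR, of 11. Its log2 fold change was 1.51 without LLC 1 (adjusted p = 0.00545), and its call was lost without any 1 of the Control libraries or LLC 5 (adjusted p up to 0.098). Trim63 had a log2 fold change of 2.20 ± 0.66 (SE) with an edgeR adjusted p of 0.0718, and DESeq2 called it. Without LLC 1 this fell to 1.46 and edgeR called it (adjusted p = 0.0338).

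Klhl23 (ENSMUSG00000042155, chromosome 2:69821944-69836651, plus strand) was the fourth Kelch gene called. Control libraries held 15.3, 19.9, 16.8 and 17.6 CPM, and LLC libraries 4.37 to 13.1 CPM with a median of 10.0. The groups did not overlap, and LLC 1 was the lowest library. The log2 fold change was -0.89 ± 0.23 (SE; edgeR adjusted p = 0.042), and -0.74 without LLC 1 (adjusted p = 0.00587). The call was lost without any 1 of the Control libraries, LLC 5 or LLC 6, with adjusted p up to 0.122 at log2 fold changes of -0.95 to -0.82.

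Fbxl16 (ENSMUSG00000025738, chromosome 17:25809085-25821255, plus strand), an F-box protein with leucine-rich repeats, was the only F-box member called. Control libraries held 4.61, 2.77, 3.24 and 3.34 CPM, and LLC libraries 0.823 to 2.42 CPM with a median of 1.91. The highest LLC library came close to the lowest Control library without crossing it. For this gene the log2 fold change was -0.98 ± 0.26 (SE; edgeR adjusted p = 0.043), and -0.83 without LLC 1 (adjusted p = 0.0179). Leaving out any 1 Control library, LLC 2, LLC 5 or LLC 6 ended the call, with adjusted p up to 0.152 at log2 fold changes of -1.08 to -0.82.

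**Figure D2:**
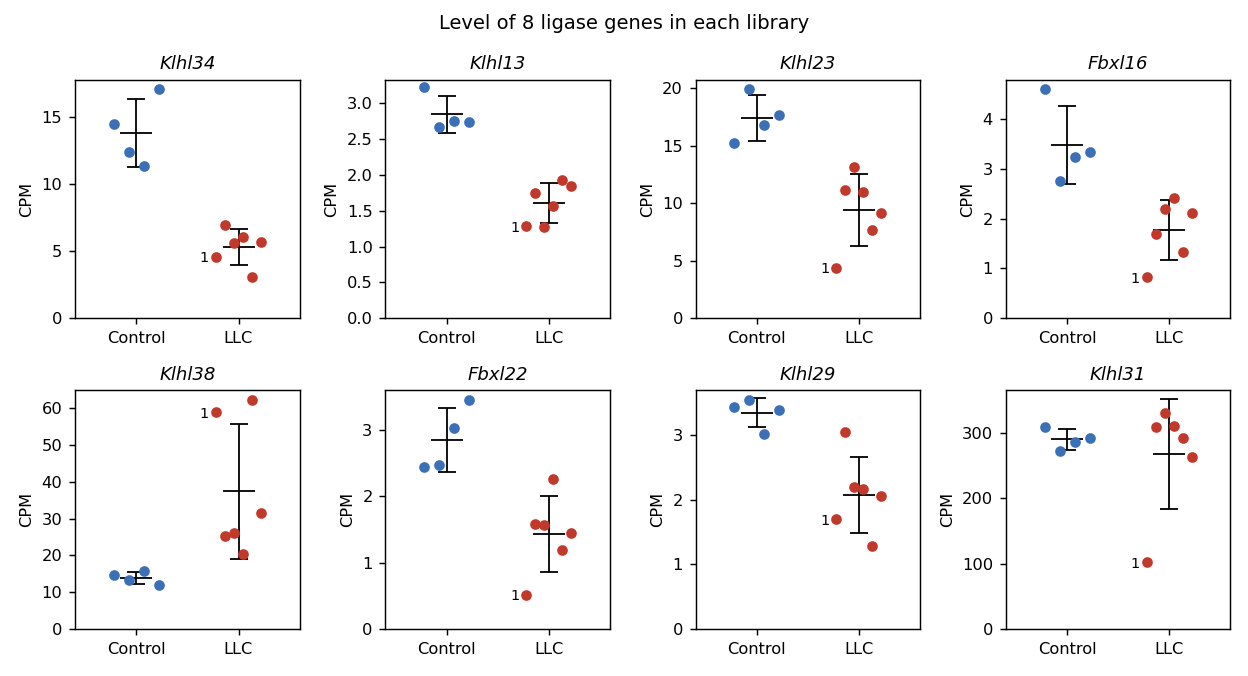
CPM (y axis, from 0) of 8 members in each Control (blue) and LLC (red) library, with mean and SD as bars and LLC 1 marked 1. Control and LLC points do not overlap for Klhl34, Klhl13, Klhl23, Fbxl16, Klhl38 and Fbxl22, and in Klhl31 LLC 1 lies alone at 102 CPM.

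Fbxl22 and Klhl29 were called by DESeq2 but not by edgeR over all libraries. Fbxl22 (chromosome 9:66508459-66514593, minus strand) is an F-box protein of the sarcomere. It held 2.44, 2.47, 3.03 and 3.45 CPM in Control and 0.514 to 2.27 CPM in LLC with a median of 1.51. The groups did not overlap, and LLC 1 was lowest. Its log2 fold change was -0.99 ± 0.28 (SE; edgeR adjusted p = 0.0597, DESeq2 adjusted p = 0.0148), and -0.81 without LLC 1 (edgeR adjusted p = 0.0186). Its exons overlap antisense exons of Herc1. Klhl29 (chromosome 12:5077472-5375682, minus strand) held 3.44, 3.56, 3.03 and 3.40 CPM in Control and 1.29 to 3.05 CPM in LLC with a median of 2.12. LLC 2, at 3.05 CPM, reached the lowest Control library. The log2 fold change was -0.70 ± 0.20 (SE; edgeR adjusted p = 0.0565, DESeq2 adjusted p = 0.0206). Without LLC 1 edgeR called both genes, 7 members in all.

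The 7 members known from striated muscle showed no common direction. Klhl38 rose, Klhl34 fell, and Fbxl22 was called by DESeq2 and voom but not by edgeR over all libraries. Klhl31, a Kelch protein needed for sarcomere upkeep (chromosome 9:77636500-77660127), had the highest level per length of the Kelch members over the 10 libraries. It held 309, 272, 286 and 293 CPM in Control and 102 to 331 CPM in LLC with a median of 301. The 5 other LLC libraries lay between 263 and 331 CPM, and LLC 1 alone was far below Control. The log2 fold change was -0.11 ± 0.25 (SE; edgeR adjusted p = 0.789), and 0.06 without LLC 1. Trim72, also called MG53 and known for membrane repair, held 125, 117, 127 and 129 CPM in Control and 120 to 154 CPM in LLC with a median of 139. The ranges overlapped, with a log2 fold change of 0.16 ± 0.09 (SE). Klhl30 had a log2 fold change of 0.01 and Klhl33 of -0.25, and neither was called.

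Of the 10 Cul3 adaptors of the Kelch family with known substrates, only Klhl13 was called, and 8 had a positive change. Klhl21, another mitotic adaptor, held 128, 149, 128 and 135 CPM in Control and 146 to 250 CPM in LLC with a median of 177. LLC 2 alone fell within the Control range and LLC 1 was highest. This was a log2 fold change of 0.45 ± 0.14 (SE; edgeR adjusted p = 0.0748). DESeq2 gave an adjusted p of 0.0275, but the change was under 1.5-fold. Klhl24, whose protein acts on intermediate filaments, had a log2 fold change of 0.36 ± 0.15 (SE; edgeR adjusted p = 0.152), again with LLC 1 highest, at 179 CPM.

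All 8 cullins were expressed and none was called. Cul3, the scaffold of the Kelch ligases, stood highest of all members per length, with 61.0 CPM per kilobase of exon over the 10 libraries. It held 286, 293, 271 and 270 CPM in Control and 285 to 378 CPM in LLC with a median of 298. The ranges overlapped, LLC 1 being highest. Its log2 fold change was 0.14 ± 0.10 (SE; edgeR adjusted p = 0.356), and 0.08 without LLC 1. Thus the scaffold was not called while 4 of the Kelch genes were.

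Cul1, the scaffold of F-box ligases, held 87.3, 87.8, 90.4 and 83.0 CPM in Control and 90.4 to 193 CPM in LLC with a median of 106. No LLC library fell below a Control library, but the gap between the groups was 0.0322 CPM. LLC 1 was far above the rest. The log2 fold change was 0.44 ± 0.20 (SE; edgeR adjusted p = 0.175), and 0.25 without LLC 1. Cul4b, a scaffold that binds Ddb1, held 7.89, 9.09, 8.06 and 9.37 CPM in Control and 9.37 to 18.7 CPM in LLC with a median of 10.3. The gap there was 0.0073 CPM, with LLC 1 again far above. Its log2 fold change was 0.43 ± 0.19 (SE; edgeR adjusted p = 0.175), and 0.24 without LLC 1. Its paralog Cul4a had 0.19 ± 0.11 (SE), and 0.11 without LLC 1.

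Cul7, which assembles with Fbxw8, was the only cullin with a negative change. It held 4.61, 3.51, 4.98 and 5.04 CPM in Control and 2.52 to 4.33 CPM in LLC with a median of 3.05. LLC 4 alone lay inside the Control range. The log2 fold change was -0.52 ± 0.17 (SE; edgeR adjusted p = 0.0842), and Cul7 was called only without LLC 4 (-0.63, adjusted p = 0.0278). Cul2, the scaffold of the Vhl ligase, had 0.07 ± 0.10 (SE), Cul5, which takes SOCS-box proteins, 0.13 ± 0.08, and Cul9 0.25 ± 0.10, all as log2 fold changes. The summed level of the 8 cullins was 605 to 653 CPM in Control and 667 to 878 CPM in LLC. The sums did not overlap, and LLC 1 held the highest. The summed Klhl level did not overlap either, at 942 to 995 CPM in Control and 1011 to 1089 CPM in LLC. LLC 1 was again highest there. The summed Fbxl, Fbxo, Fbxw and Trim levels overlapped between the groups. A sum is weighted to the genes of highest CPM, such as Cul3 with a Control mean of 280 CPM.

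**Figure D3:**
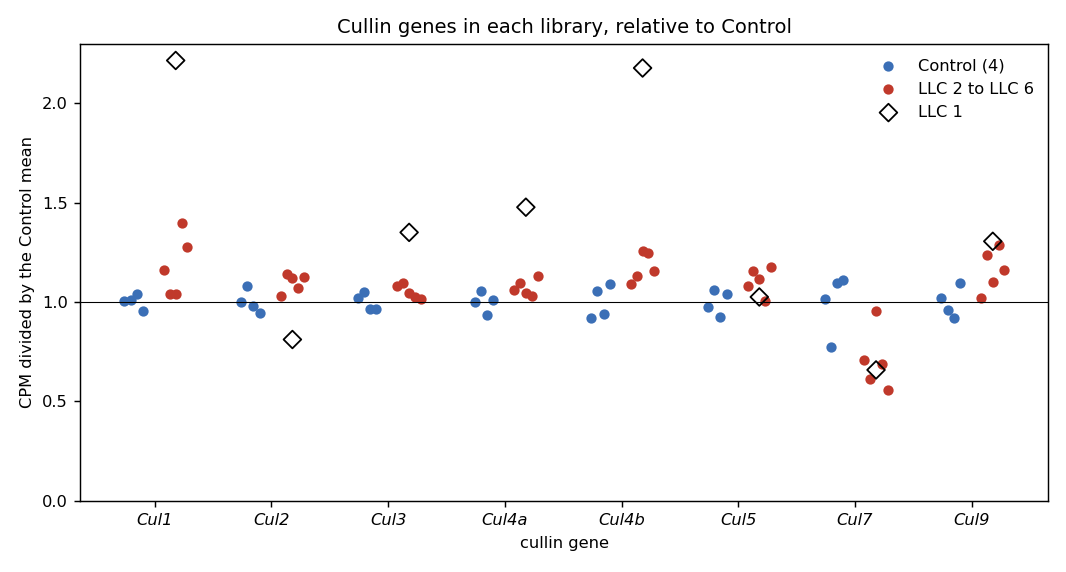
CPM of each cullin divided by its Control mean (y axis, from 0) in Control (blue), LLC 2 to LLC 6 (red) and LLC 1 (diamond). LLC 1 lies above the other LLC libraries in Cul1, Cul3, Cul4a and Cul4b and below them in Cul2, while Cul7 is the gene with most LLC points under the line.

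None of the core partners of the cullins was called. Of the 6 RING, linker and adaptor subunits, 10 neddylation enzymes (which switch cullins on) and 14 COP9 signalosome and exchange factors (which switch them off or swap adaptors), none was called by edgeR or DESeq2. Their median log2 fold changes were 0.06, -0.04 and 0.05. Control and LLC did not overlap in 2 of the 6 (33.3%), 0 of the 10 and 1 of the 14 (7.14%), beside 16.0% of all genes. Skp1a, the link between Cul1 and F-box proteins, held 154 CPM in Control and 204 in LLC. Its log2 fold change was 0.41 ± 0.13 (SE; edgeR adjusted p = 0.0823). The groups did not overlap for Skp1a, and DESeq2 gave an adjusted p of 0.0326 for a change under 1.5-fold. Cand2, an exchange factor of muscle, held 126 and 95.5 CPM (-0.40 ± 0.15, adjusted p = 0.117). Its log2 fold change was -0.30 without LLC 1. Among 22 substrate receptors with other symbols, 21 were tested and edgeR called none over all libraries. DESeq2 called Socs3, a feedback inhibitor of cytokine signaling, with a log2 fold change of 1.28 ± 0.39 in edgeR (SE; edgeR adjusted p = 0.0711). Without LLC 1 edgeR called it as well (1.33, adjusted p = 0.0409). Skp1a, Cand2 and Socs3 were chosen after their values were seen.

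Of 17 F-box proteins with well-known substrates, 13 were tested and none was called, with log2 fold changes from -0.16 to 0.41. Fbxw5, of the Fbxw members the highest per length, held 80.6, 74.3, 74.2 and 79.6 CPM in Control and 60.7 to 81.8 CPM in LLC with a median of 76.1. LLC 1 alone lay below Control, and the log2 fold change of -0.04 ± 0.09 (SE) became 0.02 without it. Fbxo9, of the Fbxo members the highest per length over the 10 libraries, held 50.2, 45.6, 50.1 and 43.8 CPM in Control and 34.8 to 46.8 CPM in LLC with a median of 42.5. The ranges overlapped, at -0.20 ± 0.10 (SE). Fbxw7, a receptor for cyclin E and Myc, had a log2 fold change of -0.16 and Fbxw11, one of the beta-TrCP proteins, of 0.12.

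Of 15 interferon-linked TRIM genes 10 were tested and none was called. Their log2 fold changes ran from -0.43, in Trim34a, to 0.49, in Trim30a, with a median of 0.06. Trim30a, with 1 of its 2 promoters given above, held 3.81, 3.01, 3.03 and 3.34 CPM in Control. In LLC it held 3.70 to 5.54 CPM with a median of 4.52. Only LLC 1 lay within the Control range, and the change was 0.49 ± 0.15 (SE; edgeR adjusted p = 0.0722). DESeq2 gave an adjusted p of 0.0385 for a change under 1.5-fold. Trim30a belongs to a cluster of 10 members on chromosome 7:104218793-104507849. Its 6 tested genes had no call, and as they are near copies their counts may depend on how reads were assigned. Trim21, an antibody receptor of the cytosol, had a log2 fold change of -0.43 and Trim25, which acts on RIG-I, of 0.16. The 3 tested chromatin TRIMs, Trim24, Trim28 and Trim33, had changes of -0.23, 0.26 and 0.09.

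Levels per length spread widely over the families. Among tested members the median was 2.58 CPM per kilobase, from 0.0691 in Trim2 to 61.0 in Cul3. After Cul3 came Trim72 with 59.7, Klhl31 with 42.6, Klhl30 with 41.3, Klhl21 with 41.2, Cul1 with 26.1 and Fbxw5 with 24.8 CPM per kilobase. The called genes stood lower, at 12.7 for Klhl38, 4.50 for Klhl34, 2.56 for Klhl23, 0.685 for Fbxl16 and 0.495 for Klhl13. In all, 59 of the 115 tested members had a mean of 10 CPM or more and 23 were under 2 CPM.

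Groups that did not overlap were found in 11 members, 9.57% of those tested, beside 16.0% of all genes. For 3 of them LLC was higher (Klhl38, Cul1 and Cul4b), where the share of all genes was 6.4%. For 8 it was lower (Klhl34, Klhl13, Klhl23, Fbxl16, Fbxl22, Trim2, Klhl6 and Klhl18), beside 9.57% of all genes. Of these, Klhl6, a Kelch gene of lymphoid cells, averaged 1.37 ± 0.223 CPM (SD, n = 4) in the Control group and 0.785 ± 0.292 CPM (SD, n = 6) in the LLC group, with an edgeR adjusted p of 0.091. Klhl18 had a log2 fold change of -0.27 ± 0.09 (SE; edgeR adjusted p = 0.0962) and Trim2 of -0.59 ± 0.18 (SE; adjusted p = 0.0707).

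As a group, LLC mice varied more than Control mice, though not all LLC libraries differed widely from each other. Chi-square per degree of freedom between pairs of libraries was 3.71 to 8.11 in Control. It was 7.92 to 8.76 among LLC 2, LLC 3 and LLC 4, and 42.0 to 56.4 between LLC 5 and these. Pairs with LLC 1 ran from 111 to 181. The SDs that follow include all LLC libraries. The spread on the log2 CPM scale (SD) was the greater in LLC for 93 of the 115 members, 80.9%, beside 85.1% of all genes, and its median was 0.12 in Control and 0.26 in LLC. LLC 1 was the library furthest in the direction of the change for 63 of 115 members and 6705 of 12690 genes, a direction that LLC 1 itself helps to set. By a gap criterion for single values (Dixon, 95% level) LLC 1 stood apart from the other 5 LLC libraries in 20 members, 17.4%, 12 of them high and 8 low. Over all genes it did so in 13.4%, and no other LLC library stood apart in more than 1 member. LLC 1 also had the fewest total counts, the largest TMM factor (1.17) and the lowest share of counts in mitochondrial genes, 22.0%. Its floor of 3 counts, 0.154 CPM, lay within the range of the other libraries. Cul1, Cul3, Cul4a, Cul4b, Klhl22 and Trim39 were among the 12 high genes, and Cul2, Fbxw5, Klhl31 and Klhl8 among the 8 low ones. Klhl22 held 67.6 CPM in LLC 1 and at most 36.6 CPM elsewhere, and Trim39 33.9 and at most 16.8 CPM. Klhl8 held 13.5 CPM in LLC 1, less than in any other library, and up to 43.7 CPM in the other LLC libraries. Klhl22, Trim39 and Klhl8 were chosen after their values were seen, as were Trim30a, Klhl21, Klhl24 and the other genes named that were neither called, cullins nor highest of their family per length.

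**Figure D4:**
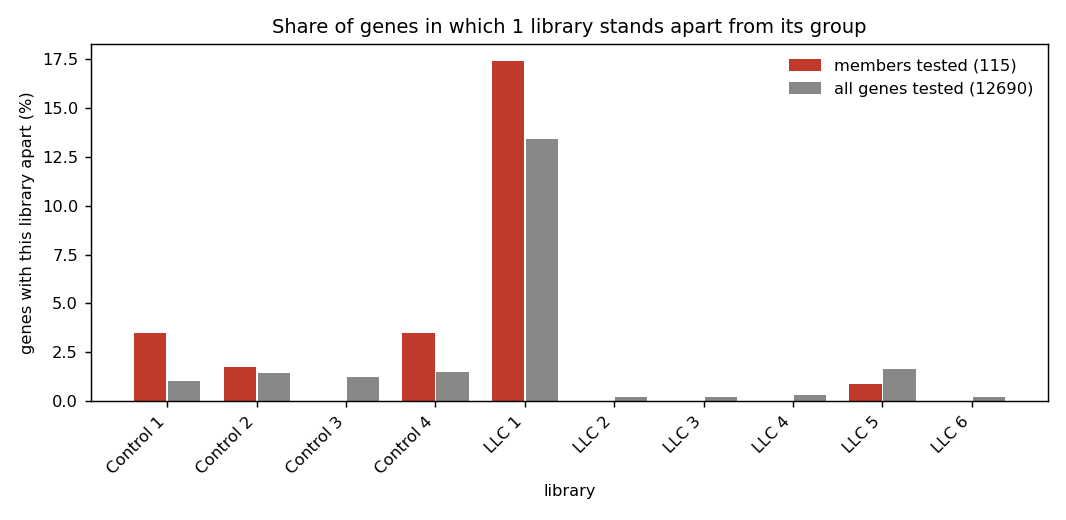
Percent of genes (y axis) in which each library (x axis) stands apart from its own group by the gap criterion, for the 115 tested members (red) and all 12690 tested genes (grey). LLC 1 has the tallest bars, at 17.4% and 13.4%.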

How the data were processed

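Per the labels and the study's methods, total RNA of tibialis anterior was made into strand-specific libraries, 1 per mouse, and sequenced from both ends in a single lane. The authors mapped reads to mm10 with TopHat2, counted them with HTSeq at default settings and deposited raw read counts for each gene, as whole numbers without any scaling. The identifiers are from Ensembl although the methods name RefSeq genes, and the annotation release is not given in the sources used here, which may affect overlapping genes. HTSeq's default counts by strand, but whether these counts keep the strands of overlapping genes apart was not checked. Coordinates and exonic lengths came from GENCODE M21 (GRCm38).

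All 10 libraries and all genes were fitted with edgeR 4.0.16 in R 4.3.3 (filterByExpr, count minimum 10, TMM factors, quasi-likelihood test, group as the only term), with Benjamini-Hochberg adjustment over 12690 genes. Standard errors came from the F statistic. DESeq2 1.42.0 and limma 3.58.1 (voom with quality weights) were alternatives, beside other scaling, filters and thresholds, a replicate block and each library left out. The fit was tested on simulated data with 200 changed genes, split evenly between 2-fold and 4-fold changes. There edgeR recovered 166 of them, 71 at 2-fold and 95 at 4-fold, with 7 false calls. A gene that was not called may therefore still have changed. The simulation gave each gene the same spread in both groups and set no library apart. In these data LLC varied more than Control and LLC 1 stood apart, so the recovery and false calls may differ here. Libraries of a group were compared by chi-square per degree of freedom, 3.71 to 8.11 in Control and 7.92 to 181 in LLC, so none was a duplicate. A floor of 3 counts covers counting error only.

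Members and lists were chosen with earlier results of these data known. Named were all called members, all cullins, the member of each family highest per length, members called by DESeq2 only and, briefly, the excluded ligases. A gene that this rule names is not reported here. Role lists are described by counts alone. Small RNA libraries of the study were not used here.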

Additional observations from a re-analysis of the deposited data

Results flagged for a closer look

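Among 40 groups of values (20 named genes in Control and in LLC), 8 held a single library apart from the others by the gap criterion. Chance gives about 1 in 20 groups, or 2 here, but the groups share libraries and are not independent. In 7 of the 8 the library was LLC 1, which stood apart in 13.4% of all genes tested. LLC 1 was highest for Cul1, at 192.94 CPM against 90.4 to 122 CPM in the other LLC libraries, for Cul3, at 378.012 against 285 to 307 CPM, for Cul4a, at 128.918 against 89.7 to 98.6 CPM, and for Cul4b, at 18.7181 against 9.37 to 10.8 CPM. It was lowest for Cul2, at 45.8695 against 58.3 to 64.5 CPM, for Fbxw5, at 60.6794 against 74.4 to 81.8 CPM, and for Klhl31, at 102.229 against 263 to 331 CPM. The remaining one was Control 1 for Klhl13, at 3.23077 CPM against 2.67 to 2.76 CPM in the other Control libraries. Without LLC 1 the log2 fold change of Cul2 was 0.14, and those of the other 6 genes in which LLC 1 stood apart are given above.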

How the results depend on the processing

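Klhl34 stayed called under all 21 alternatives. Of these, no minimum fold and an unadjusted p only loosen the rule, so neither could end a call. The 5 called members also stayed called under median-of-ratios or upper-quartile scaling, without mitochondrial genes and with robust dispersion. They stayed called with no filter or with at least 10 counts in every sample (all genes 475), with DESeq2 and with voom. With no minimum fold no further member was called. An unadjusted p gave 9 members, 8 of them lower, and 1572 genes in all. Leaving out 1 library gave 2 to 7 members (0 to 1 higher, 2 to 6 lower) and 415 to 966 genes. Each Control library left out ended the calls of Klhl38, Klhl23 and Fbxl16, and the cause was not tested. With LLC 5 or LLC 6 left out, 3 members were called. Without LLC 1, 7 were called. The log2 fold change of Klhl31 turned positive with voom (0.043) and ran from -0.18 to 0.062 (without LLC 1) as 1 library was left out, and that of Fbxw5 from -0.069 to 0.018 (without LLC 1). Neither was ever called. Replicate numbers belong to different animals and did not pair the samples (correlations of same-numbered deviations -0.03, 0.01, -0.08 and 0.13, with only number 4 matching itself best). With the replicate block, to which LLC 5 and LLC 6 add nothing because no Control shares their number, 1 member was called (0 higher, 1 lower), Klhl34, and 112 genes in all. Genes under about 1 CPM rest on few reads, which limits what could be called among them.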

Other observations

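Exons of 24 tested members overlap a gene on the other strand and those of 9 overlap a gene on the same strand, so that their counts depend on how reads were assigned there. The 10 members with the highest CPM held 47.2% of the summed CPM of the families.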
